A study of Mus musculus with 5 samples.

Results

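The genes described here are 9 genes of Leydig cell identity and hormone reception, chosen by name, out of 21887 protein-coding genes. They are the transcription factor genes Nr5a1, Gata4 and Gata6, the lineage gene Dlk1, the hormone gene Insl3, and the receptor genes Lhcgr, Prlr, Mc2r and Crhr1. All 9 were found in the mm10 RefSeq annotation, and every peak in a gene body or within 50 kb outside it was collected. Of the CREB peaks deposited, these windows held 0 of the 862 listed for E13.5, 1 of the 3528 for E16.5 and 0 of the 2957 for E18.5. Of the 21211 H3K4 peaks they held 16. The assay was CUT&RUN: a nuclease tethered to an antibody frees the DNA next to a bound factor or a marked histone. Each library came from 100000 dissociated cells of the mouse fetal testis, taken at E13.5, E16.5 or E18.5 (E, embryonic day) for CREB and at E18.5 for H3K4, with 1 library for each. The labels name the H3K4 residue without its methylation state, and give no strain, genotype or treatment. An IgG library of the series was not used.

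Leydig cells are the androgen-producing cells between the testis cords. In the fetal testis their identity rests on the nuclear receptor NR5A1 (steroidogenic factor 1) acting with the zinc finger factors GATA4 and GATA6. Several of their hormone receptors, LHCGR, MC2R and CRHR1 among them, couple to the stimulatory G protein and raise cAMP, which activates protein kinase A. That kinase phosphorylates CREB, a transcription factor that binds the cAMP response element (CRE). Methylation of histone H3 at lysine 4 marks active promoters and, as monomethylation, enhancers.

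RefSeq promoter windows (build GRCm38.p6), each covering 250 bases before to 50 after a listed start, show which letters lie where CREB was and was not listed. The first belongs to Unc13a, a neighbour of Insl3 and the only place in the 9 windows where a CREB peak was listed. The next 5 come from the 5 of the 9 genes with a window in the table, each at the start nearest to its H3K4 peak, or at its only listed start. The last is the start inside the Gnas locus, a cAMP pathway gene, that lay nearest to a CREB peak of all 3 stages. Capitals mark the CRE core, TGACG on the strand shown or CGTCA for the other strand.
Unc13a (chr8:71671708-71672007, minus strand): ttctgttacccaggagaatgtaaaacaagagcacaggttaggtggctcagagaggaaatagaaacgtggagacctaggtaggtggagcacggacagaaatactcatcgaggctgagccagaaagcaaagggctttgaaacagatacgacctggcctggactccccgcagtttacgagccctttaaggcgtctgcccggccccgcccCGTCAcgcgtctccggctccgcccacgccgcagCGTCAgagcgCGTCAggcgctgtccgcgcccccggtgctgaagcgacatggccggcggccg
Insl3 (chr8:71689002-71689301, plus strand): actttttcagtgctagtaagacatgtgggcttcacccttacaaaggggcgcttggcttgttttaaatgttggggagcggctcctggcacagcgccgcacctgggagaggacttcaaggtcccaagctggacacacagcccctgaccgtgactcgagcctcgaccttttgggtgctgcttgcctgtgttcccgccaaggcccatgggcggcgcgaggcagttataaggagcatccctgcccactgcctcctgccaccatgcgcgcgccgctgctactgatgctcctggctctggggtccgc
Lhcgr (chr17:88791965-88792264, minus strand): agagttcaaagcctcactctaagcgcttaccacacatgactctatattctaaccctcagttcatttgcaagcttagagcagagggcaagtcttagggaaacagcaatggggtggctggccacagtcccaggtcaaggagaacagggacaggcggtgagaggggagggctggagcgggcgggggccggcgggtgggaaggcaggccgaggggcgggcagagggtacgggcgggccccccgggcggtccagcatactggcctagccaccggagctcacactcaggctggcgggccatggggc
Prlr (chr15:10176988-10177287, plus strand): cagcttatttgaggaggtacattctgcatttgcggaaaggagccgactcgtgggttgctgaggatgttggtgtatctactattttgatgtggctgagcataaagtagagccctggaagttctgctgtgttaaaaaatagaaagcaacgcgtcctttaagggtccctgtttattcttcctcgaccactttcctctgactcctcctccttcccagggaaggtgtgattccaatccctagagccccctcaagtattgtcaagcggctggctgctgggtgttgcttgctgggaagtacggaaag
Crhr1 (chr11:104132531-104132830, plus strand): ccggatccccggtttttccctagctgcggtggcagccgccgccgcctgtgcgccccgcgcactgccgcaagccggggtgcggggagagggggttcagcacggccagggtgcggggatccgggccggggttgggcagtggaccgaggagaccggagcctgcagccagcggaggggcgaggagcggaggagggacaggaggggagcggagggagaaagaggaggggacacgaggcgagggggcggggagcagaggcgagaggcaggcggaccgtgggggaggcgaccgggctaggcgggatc
Dlk1 (chr12:109452573-109452872, plus strand): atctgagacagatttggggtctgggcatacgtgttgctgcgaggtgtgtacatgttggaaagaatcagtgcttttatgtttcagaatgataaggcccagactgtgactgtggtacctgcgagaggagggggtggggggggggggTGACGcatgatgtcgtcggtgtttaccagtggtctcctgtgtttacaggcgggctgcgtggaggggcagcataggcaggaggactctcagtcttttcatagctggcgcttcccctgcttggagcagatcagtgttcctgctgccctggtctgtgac
Gnas (chr2:174327499-174327798, plus strand): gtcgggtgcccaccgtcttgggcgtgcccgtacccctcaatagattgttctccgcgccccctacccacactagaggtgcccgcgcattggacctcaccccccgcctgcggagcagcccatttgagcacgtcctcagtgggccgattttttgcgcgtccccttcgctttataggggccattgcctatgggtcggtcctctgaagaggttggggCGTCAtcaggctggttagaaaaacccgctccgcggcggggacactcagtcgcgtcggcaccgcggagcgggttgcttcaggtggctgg

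The Unc13a window held 3 CRE cores, beginning 44, 11 and 1 bases before the start. The Gnas window held 1, beginning 38 bases before the start, and the Dlk1 window held 1, beginning 106 bases before it. The Insl3, Lhcgr, Prlr and Crhr1 windows shown held none. A Prlr window that is not printed, at the start at position 10223906, held 1, beginning 230 bases before that start. The full CRE, TGACGTCA, was in none of these windows, nor was the NR5A1 site searched for, CAAGGTCA or its reverse complement TGACCTTG. A match is a description of letters and not of a bound site. Of all 32851 promoter windows, 20.8% held a CRE core, 1.79% the full CRE and 1.56% the NR5A1 site. Windows that touched a CREB peak held the CRE core in 76.4% of cases for E13.5, 60.8% for E16.5 and 62.2% for E18.5. Windows that touched an H3K4 peak held it in 31.8%. Each full CRE contains the core on both strands.

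No CREB peak was listed at an end of any of the 9 genes or inside one, at any stage. Over all protein-coding genes, CREB was at a gene end in 3.94% of genes for E13.5, 14.9% for E16.5 and 12.9% for E18.5. In at least 1 list, 16.7% had it at an end and 19.2% at an end or inside. A gene end means within 1000 bp of an outer end of the annotated gene. With the whole window counted, 0 of 9 genes had a CREB peak at E13.5, 1 of 9 had one at E16.5 and none of the 9 at E18.5, against 12.9%, 37.3% and 33.3% of all protein-coding genes. A median of 1 other protein-coding gene touched the 9 windows, against 3 for all genes; the Insl3 window, the only one with a CREB peak, was touched by 4. Gata6, Dlk1, Lhcgr, Prlr, Mc2r and Crhr1 had 0 or 1 such neighbour, and among the 6300 protein-coding genes with so few, 1167 had a CREB peak of any stage in the window. Beside shares of this size, 0 of 9 genes with CREB at an end is no result about these genes in particular. The depth of the libraries is unknown, and Leydig cells are a part of the cells taken, so a peak missing from a list does not show that CREB was absent, and few cells with CREB cannot be told apart from little CREB per cell.

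**Figure D1:**
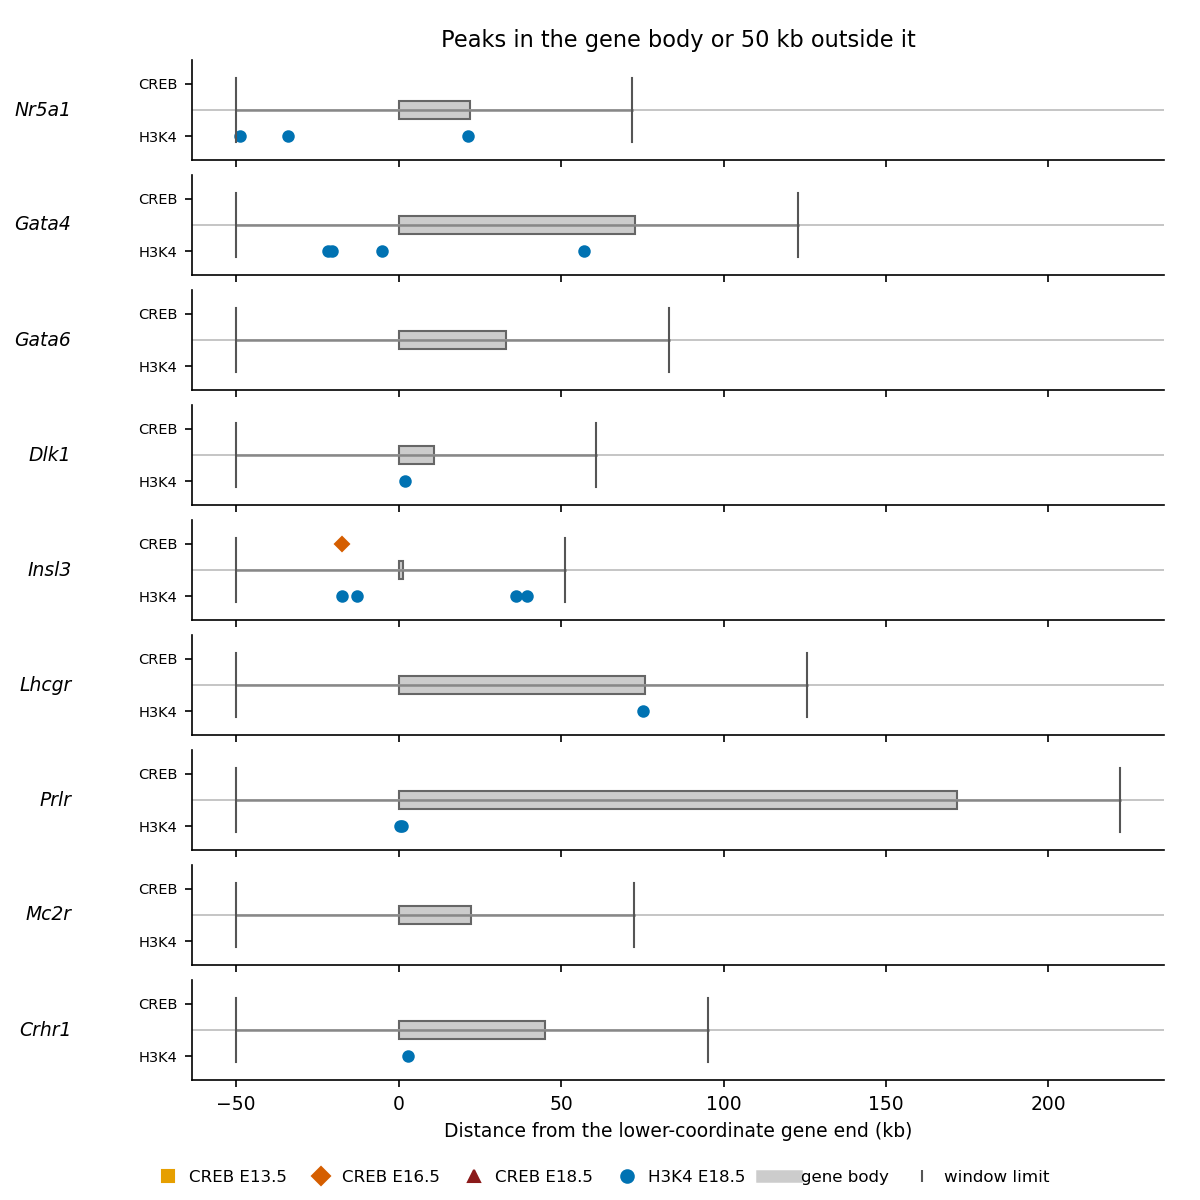
Peaks in the gene body (grey bar) or 50 kb outside it for each of the 9 genes, against the distance in kb from the lower-coordinate gene end. CREB peaks stand above the line and H3K4 peaks below it; the E16.5 peak near Insl3 is the only CREB peak, and the windows of Gata6 and Mc2r are empty.

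Nr5a1, the gene of the steroidogenic cell factor itself (chr2:38692656-38714542), had an H3K4 peak near its higher-coordinate end, at chr2:38713853-38714062. The midpoint lay 585 bp inside that end, and the peak stood in row 421 of the 21211 in the deposited file, whose order is not explained. No other H3K4 peak of the 9 windows stood so early in the file. The others in the Nr5a1 window lay closer to ends of other genes. A peak at chr2:38643770-38643979, row 5576, lay 78 bp from an end of the proteasome subunit gene Psmb7. A peak at chr2:38658480-38658689, row 20420, lay 14632 bp from the nearest protein-coding gene end, also of Psmb7, and 10068 bp from an end of Gm36744, the nearest of any annotated gene. The nearest CREB peak was 2.56 Mb from Nr5a1 at E13.5, at Rbm18, and 212 kb away at E16.5 and E18.5. At both later stages it lay at Nr6a1, which encodes another orphan nuclear receptor, with midpoints 132 and 142 bp from an end of that gene at E16.5 and E18.5.

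Gata4 and Gata6 both lacked H3K4 at their ends. Gata4 (chr14:63198914-63271712) had 1 H3K4 peak inside the gene, at chr14:63255708-63255917, row 16186, 15900 bp from its nearest outer end. Outside it, peaks in rows 14279 and 8448 lay 21663 and 20661 bp from Gata4 and were closest to Fdft1, the squalene synthase gene, 4436 and 3434 bp from its end. Another, in row 16532, lay 5222 bp from Gata4 and 462 bp from an end of the DNA repair gene Neil2. The nearest CREB peaks were 361 kb away at E13.5 and 362 kb at E16.5 and E18.5, all near an end of Wdfy2. Gata6 (chr18:11052510-11085636) had no peak of any list in its window, and its nearest H3K4 peak lay 267 kb off. Its nearest CREB peak was 1.09 Mb away at E13.5 and E18.5, at Thoc1, and 572 kb away at E16.5. Gata6 has no other protein-coding gene in its window.

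Dlk1 (chr12:109452485-109463336) encodes a membrane protein with EGF-like repeats, related to the Notch ligands, and is expressed from the paternal allele only. It had 1 H3K4 peak inside the gene, at chr12:109454479-109454688, row 13955. Its midpoint lay 2098 bp from the outer end and 1760 bp downstream of the listed start. The only CREB peak within 100 kb was listed at E16.5, at chr12:109540563-109541192, row 2924 of 3528, and lay 77.5 kb from Dlk1. The gene end closest to it is that of Meg3, the maternally expressed noncoding RNA of the same imprinted domain. At E13.5 and E18.5 the nearest CREB peak was 1.02 Mb from Dlk1. The CRE core in the Dlk1 window printed above had no listed CREB peak within 50 kb at any stage.

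Insl3 (chr8:71689252-71690577) encodes the Leydig cell peptide that drives descent of the testis. It had no H3K4 peak within 1000 bp and none inside. The nearest, at chr8:71676422-71676631, row 9303, lay 12726 bp away and 143 bp from an end of Jak3, a tyrosine kinase gene of cytokine receptors. Of the remaining 3 H3K4 peaks, 1 lay at Unc13a and the others were closest to Fcho1, whose product acts in clathrin endocytosis. The CREB peak in this window was listed at E16.5, at chr8:71671406-71672035, in row 2735 of 3528. Its midpoint was 17532 bp from Insl3 and 37 bp downstream of the listed start of Unc13a, which encodes a synaptic vesicle priming protein. It covered the whole Unc13a window printed above, with its 3 CRE cores. All 210 bp of an H3K4 peak at chr8:71671747-71671956, row 16176, lay inside it, with midpoints 131 bp apart. No other stage listed CREB there, and the nearest CREB midpoints were 60678 bp from this peak at E13.5 and 60701 bp from it at E18.5, both close to Colgalt1. The usual peak width is 150 bp in the E13.5 list, 630 bp in the E16.5 list and 160 bp in the E18.5 list. Set to 150 bp, the E16.5 peak still lay in the window. A narrower width could not make it shared with another stage.

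Lhcgr (chr17:88716384-88792059), the receptor for luteinizing hormone, had a single H3K4 peak, at chr17:88791386-88791595, row 18376. It lay 569 bp from the higher-coordinate end and 524 bp downstream of the listed start. No other peak of any list was in its window. CREB was nearest at 3.76 Mb at E13.5, 442 kb at E16.5 and 650 kb at E18.5. The E18.5 peak was 291 bp from an end of Fbxo11, a ubiquitin ligase gene.

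Prlr (chr15:10177238-10349190), the prolactin receptor, which signals through JAK2 and STAT5, had H3K4 peaks both at its start and just inside the gene. The peak at chr15:10177574-10177783, row 5882, lay 440 bp downstream of the start. The peak at chr15:10178298-10178507, row 4112, lay 1164 bp downstream and therefore counted as inside. Prlr has 2 further listed starts within the gene, and the nearest H3K4 midpoint lay 45504 bp upstream of the start at position 10223906 and 115249 bp upstream of the start at position 10293651. The E13.5 list had no CREB peak within 15.6 Mb of Prlr, the longest such distance among the 9 genes. At E16.5 and E18.5 the nearest lay 715 kb and 1.05 Mb away.

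Mc2r and Crhr1 belong to the axis that drives the adrenal cortex, as receptors for ACTH and for corticotropin-releasing hormone; MC2R is also present on fetal mouse Leydig cells. Mc2r (chr18:68406899-68429320) had no peak of any list in its window. The nearest H3K4 peak, row 17849, was 69.4 kb away and 777 bp from an end of Mc5r, another melanocortin receptor gene. CREB was nearest at 107 kb at E16.5 and E18.5, where the peaks lay 27 and 16 bp from an end of Fam210a, and at 5.14 Mb at E13.5. Crhr1 (chr11:104130463-104175523) had 1 H3K4 peak, at chr11:104133294-104133503, row 17548. It lay 2935 bp from the outer gene end but 617 bp downstream of the listed start. The nearest CREB peak was 433 kb from Crhr1 at E13.5, at Gosr2, and 164 kb away at E16.5 and E18.5, at Arf2.

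Across the 9 genes the nearest CREB peak lay at a median of 1.09 Mb at E13.5, 212 kb at E16.5 and, in the E18.5 list, 362 kb, against medians of 703, 113 and 149 kb over all protein-coding genes on chromosomes with a peak. Insl3 had the shortest distance in each list, at 78.2, 17.5 and 78.2 kb. At Gata4 the nearest peak was the Wdfy2 site at all 3 stages, and at Nr5a1, Mc2r and Crhr1 it was the same site at E16.5 and E18.5. At Gata6, Dlk1, Insl3, Lhcgr and Prlr the E16.5 list held a nearer peak than either other list. The E16.5 list is the longest and the E13.5 list the shortest, so the distances cannot be read as a change with age.

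**Figure D2:**
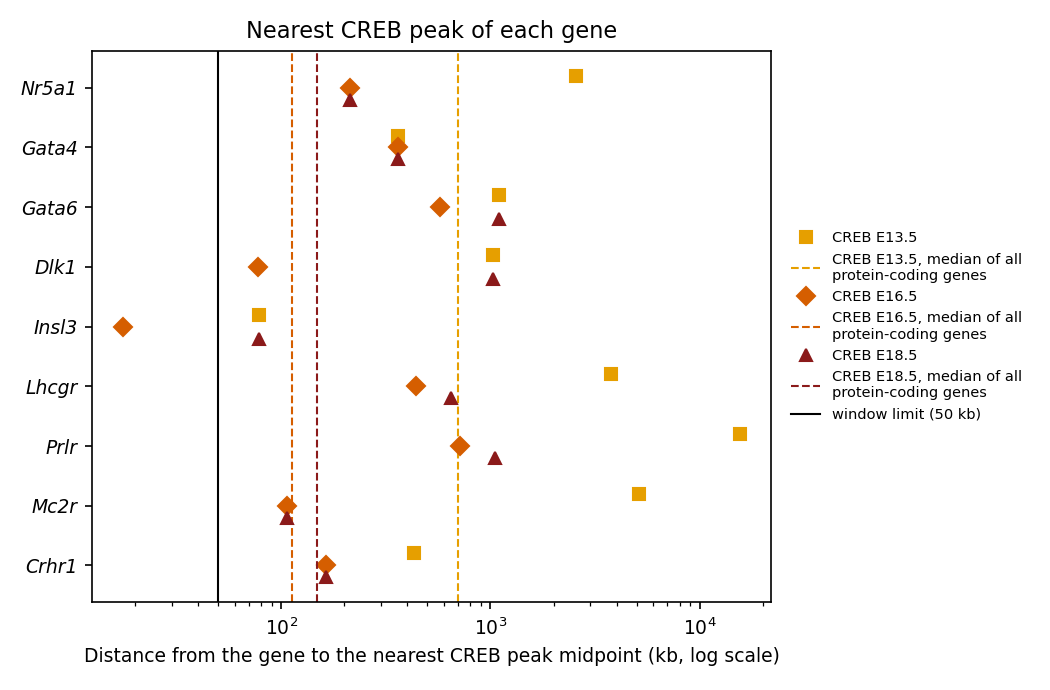
Distance in kb (log scale) from each gene to the midpoint of its nearest CREB peak, with a symbol for each stage, dashed lines for the median over all protein-coding genes and a solid line at the 50 kb window limit. Only the E16.5 point of Insl3, at 17.5 kb, lies left of the limit.

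H3K4 lay at the ends of some of the 9 genes and inside others. A window with at least 1 H3K4 peak was found for 7 of 9 genes, against 77.7% of all protein-coding genes. Nr5a1, Lhcgr and Prlr had a peak at a gene end, which is 3 of 9 against 52.7% of all protein-coding genes. Gata4, Dlk1 and Crhr1 had one inside the gene and none at an end, which is 3 of 9 against 8.84%. Insl3, Gata6 and Mc2r had neither, against 38.5% of all genes. The median length of the 9 genes was 33.1 kb, against 17.2 kb for all protein-coding genes, with Insl3 and Dlk1 below that, and the part of gene length in these counts was not tested. The inside group depends on how an end is drawn. Counting listed starts as ends moves Crhr1 to the end group and gives 4 of 9, against 57.3% of all genes. Separately, ends of 2500 bp move Dlk1 to the end group. The share of all genes with H3K4 inside only was not computed under these rules. Of the 16 H3K4 peaks in the windows, 7 had an end of the gene itself as the nearest protein-coding gene end, and 9 were closer to another gene. The like share for the windows of all protein-coding genes was not computed. Among all genes with H3K4 at an end, 23.4% also had a CREB peak there at E18.5, the stage that matches, against 0 of the 3 genes here.

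**Figure D3:**
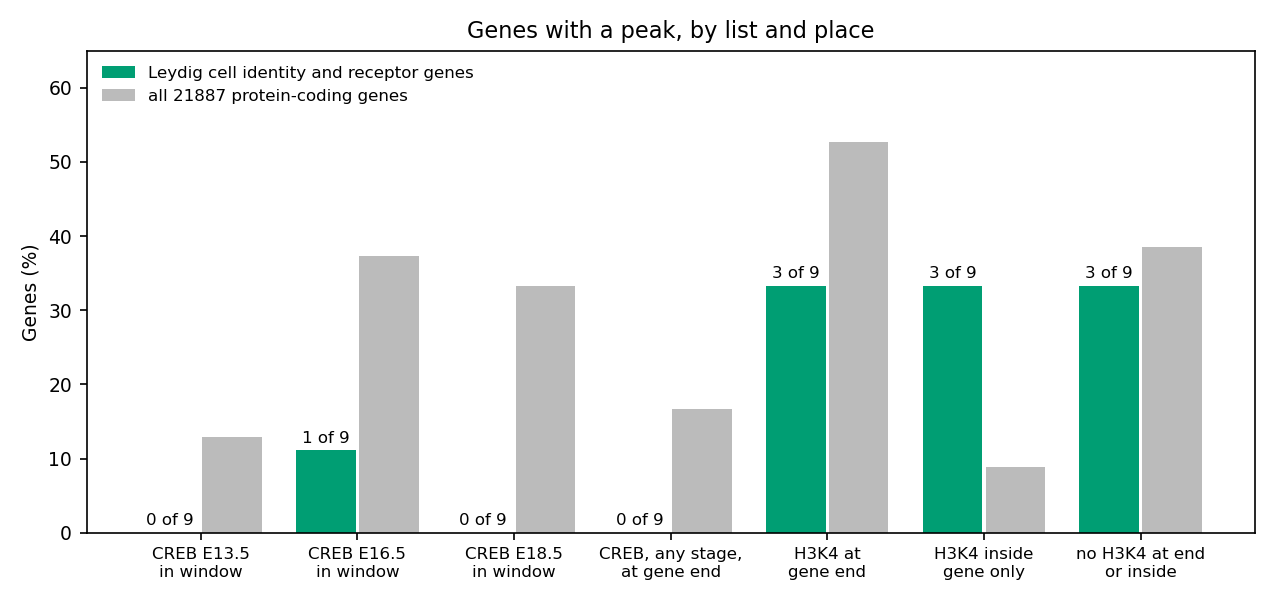
Percentage of genes with a peak of each kind, for the 9 genes (green, counts above the bars) and for all protein-coding genes (grey). H3K4 inside a gene without H3K4 at an end was found for 3 of 9 genes, against 8.84% of all genes, and CREB at a gene end for 0 of 9. Of those with H3K4 inside only, Dlk1 counts as at an end with ends of 2500 bp, and Crhr1 with listed starts.

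Inside the genes with a listed start, the H3K4 peaks lay downstream of the start nearest to them. At Prlr, Lhcgr and Dlk1 that start lies at or close to the outer gene end, so a peak inside the gene lies downstream almost by position alone. The nearest midpoints were 440 bp downstream at Prlr, 524 bp at Lhcgr, 617 bp at Crhr1 and 1760 bp at Dlk1. Over the 14255 listed starts with an H3K4 midpoint within 2000 bp, the nearest midpoint lay downstream for 63.2%. Its median was 111 bp downstream, with quartiles at 162 bp upstream and 401 bp downstream. All 4 genes lay beyond the upper quartile. No H3K4 midpoint lay within 2000 bp of the Insl3 start. RefSeq promoter windows of Nr5a1, Gata4, Gata6 and Mc2r were not used here.

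**Figure D4:**
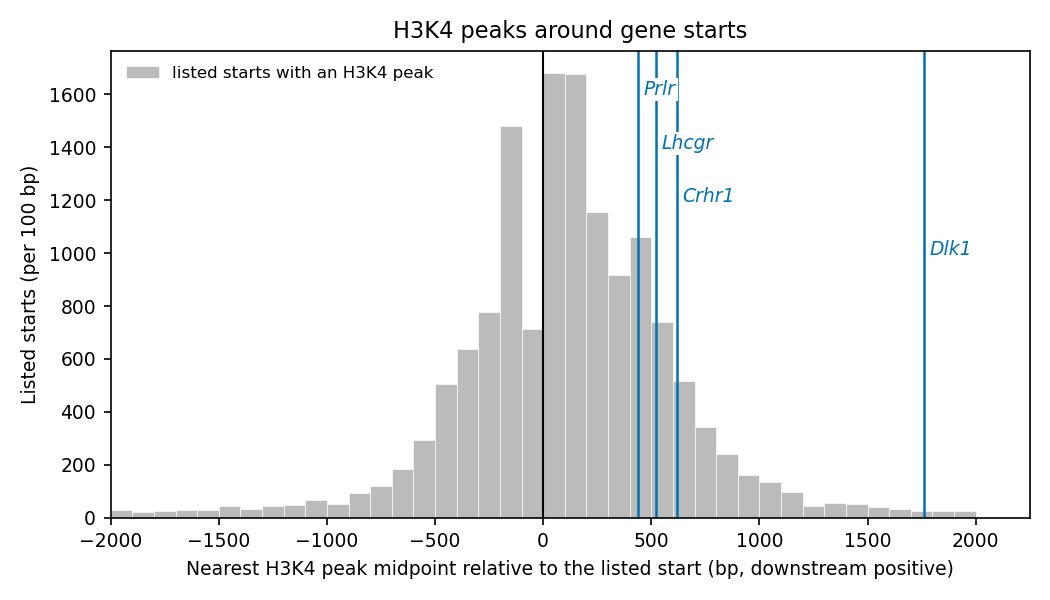
Number of listed starts per 100 bp (grey bars) against the position of the nearest H3K4 midpoint in bp, with downstream positive, and blue lines for the nearest H3K4 peak of Prlr, Lhcgr, Crhr1 and Dlk1. The 4 lines stand between 440 and 1760 bp, right of the median of 111 bp.

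Related genes of the same pathways were read the same way, from a list of 34 cofactors, ligands, receptors and signalling genes. CREB stood at a gene end in 0 of them at E13.5 and in 1 at each later stage, against 3.94%, 14.9% and 12.9% of all genes by stage. H3K4 stood at an end in 17, against 52.7% of all genes. The CREB gene was Zfpm1, which encodes FOG1, a cofactor of GATA factors. Its peaks stood at chr8:122281404-122282033, row 1448, at E16.5 and chr8:122281464-122281623, row 1195, at E18.5, with midpoints 138 and 313 bp from an outer end. The listed start nearest to both was that of Gm39269, on the opposite strand, at 1 bp for the E16.5 peak and 174 bp for the E18.5 peak, against 423 and 598 bp for the nearest Zfpm1 start. Zfpm2, the FOG2 gene whose product partners GATA4 in the gonad, had H3K4 at an end and no CREB peak. Of the nuclear receptor genes, Nr0b1 (DAX1) had H3K4 at an end, Nr5a2 inside, and neither had CREB.

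CREB inside a gene, and not at an end, was listed for Gnas at every stage, for Nr2f2 at E16.5 and for Notch2 at E18.5. Of the 34 related genes these are 1, 2 and 2 by stage, against 0.461%, 2.24% and 1.67% of all protein-coding genes. Gnas encodes the alpha subunit of the stimulatory G protein and other products from separate starts in 1 imprinted locus. Its CREB peaks were chr2:174327463-174327612, row 740, at E13.5, chr2:174327290-174327919, row 1109, at E16.5 and chr2:174327458-174327617, row 331, at E18.5. Their midpoints lay 212, 145 and 212 bp upstream of the listed start whose window is printed above. The nearest H3K4 midpoint was 32834 bp from that start. Gnas did have H3K4 at a gene end, and an H3K4 midpoint lay 247 bp downstream of another Gnas start, at position 174284320. The closest end of any annotated gene was that of Gm30189, 150, 217 and 150 bp from the CREB midpoints by stage. A further Gnas start, with a CRE core in its window, lay 2469, 2402 and 2469 bp downstream of the CREB midpoints. Nr2f2, the COUP-TFII gene of interstitial progenitors, had its E16.5 peak in row 2996 and no H3K4 at an end or inside. The peak midpoint lay 4878 bp downstream of a listed Nr2f2 start and closer, at 3515 bp, to the start of B130024G19Rik. Notch2, a receptor of the pathway to which DLK1 is related, had H3K4 at an end and its E18.5 CREB peak 61070 bp from the nearest outer end. Of the downstream genes of the prolactin receptor, Jak2 and Stat5a had H3K4 at an end and Stat5b inside. Stat5b joins the end group when listed starts count as ends. Of the melanocortin genes, Mc1r, Mc4r, Mc5r, Pomc and Mrap, the accessory protein gene of MC2R, had H3K4 at an end, and Mc3r and Mrap2 had none.

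The tissue label was read against marker genes by H3K4 at gene ends, found for 52.7% of all protein-coding genes. It was found for 2 of 4 Leydig genes (Star and Cyp11a1, not Cyp17a1 or Hsd3b1), 3 of 4 Sertoli genes (Sox9, Amh and Dhh, not Wt1) and 2 of 4 germ cell genes (Dazl and Dnd1). None of the 4 adrenal cortex genes, Mc2r among them, and none of the 3 macrophage genes had it, against 2 of 3 endothelial genes. All 3 ovary genes (Foxl2, Fst and Bmp2) had it as well, so H3K4 at an end does not by itself tell testis from ovary. Of 4 genes of other organs, 0 had it at an end and Neurod1 had it inside. At E18.5 a CREB peak lay inside Cyp11a1, the gene of the first steroidogenic enzyme, as for 1.67% of all protein-coding genes. No other Leydig marker had CREB at an end or inside in any list.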

How the data were processed

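The titles of the CUT&RUN libraries, made from dissociated mouse fetal testis cells, gave their antibody and stage. The deposited files are peak lists of 3 columns, chromosome, start and end. They hold no score or read count, so the authors' peaks were neither ranked by strength nor filtered, and the depth is unknown. Trimming tool, aligner and peak caller are listed in the submitters' processing notes as Trim Galore (0.6.10), Bowtie2 (version 2.5.2) and MACS2, with mm10 as the build. Peak calling settings and the use of a control library are not given in the sources used. The IgG library was not analysed here.

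Gene positions were taken from RefSeq on GRCm38.p6 (the same coordinates as mm10), where 21887 protein-coding genes lie on assembled chromosomes. It gives outer gene ends without strand or exons. Start sites and strand came from a RefSeq table of 32851 promoter windows, which holds 5 of the 9 genes. A peak was credited to a gene when at least 1 bp of it touched the gene body or the 50 kb outside it. It counted as at a gene end within 1000 bp of an outer end, as inside when it touched the body elsewhere, and as outside otherwise. Distances run from the peak midpoint. Positions are 1-based, and a row is the place of a peak in its file, whose order no source used here explains.

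Named are the 9 genes, each peak in their windows with its nearest protein-coding gene, and the related genes with a CREB peak at a gene end. Other related genes, and the neighbours outside the windows, were named after their values were seen. The rule also asked for related genes that share the list pattern of a gene with a CREB peak at an end; no such gene was found among the 9. The genes and lists were chosen with earlier results of these data known. With 1 library per antibody and stage there is no replicate check and no test. Alternatives were other windows, end distances, widths and overlap rules, and counting listed starts as ends, which was added after seeing the data. The code was tested on simulated data, with 200 planted peaks per list, all recovered. Python 3.11.15, numpy 2.4.6, pandas 2.3.3 and matplotlib 3.10.9 were used.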

Additional observations from a re-analysis of the deposited data

How the results depend on the processing

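Of 64 alternatives run over 14 counts, 51 stayed within 1.5 times the value reported and 13 did not. Many of the 51 only narrowed a CREB count that was already 0, and so could not change it. The CREB count of 0 of the 9 genes at a gene end stayed 0 with ends of 2500 bp and with listed starts, in each list. Neither rule could raise it, since no CREB midpoint lay nearer than 17.5 kb to any of the 9 genes. Only 5 of the 9 have a listed start. Ends of 500 bp, peak midpoints and the first 862 peaks of each CREB list could not raise a count of 0. A width of 150 bp narrowed or kept nearly every CREB peak, so it could hardly raise the count either. For H3K4 at a gene end the count of 3 genes was 4 with ends of 2500 bp, which adds Dlk1, and 4 with listed starts, which adds Crhr1. Counts of peaks in the windows followed the window. With 10 kb outside the gene the E16.5 count of 1 was 0 and the H3K4 count of 16 was 8. With 100 kb the CREB count was 3 at E16.5 and 1 in each other list, and the H3K4 count was 25. When only peaks nearest to the gene itself counted, E16.5 gave 0 and H3K4 gave 7. With the first peaks of the CREB lists, E16.5 gave 0. For the related genes, listed starts raised the CREB counts to 1, 2 and 2 of 34 by adding Gnas. Under that rule the shares of all protein-coding genes were 4.24%, 16% and 13.8% by stage. Ends of 500 bp lowered the H3K4 count of 17 to 9, and the share of all genes with such ends was not computed. Of the related genes named above with H3K4 at an end, Zfpm2, Notch2, Stat5a, Mc1r and Mc5r then lost it. No replicate could be left out, since there is 1 library per antibody and stage. No paired analysis was possible because the groups hold 1 library each and the labels give no replicate numbers. Peak lists without depth cannot tell a missing peak from a site under the calling threshold.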
